A study of Arabidopsis thaliana with 12 samples.

Results

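The Aux/IAA and ARF genes encode the transcriptional core of the nuclear auxin response in Arabidopsis thaliana. They were taken as 43 loci by family membership, 28 Aux/IAA genes and 15 ARF genes, a rule that uses no measured value. The deposited table held 42 of them among its 21200 genes, 27 Aux/IAA and 15 ARF, and all 42 passed the filter on low counts that left 18867 genes for testing. The transcript level of IAA34 was not analysed here, while the sequence before its gene start is among the 28 Aux/IAA windows counted below.

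The study sequenced RNA from whole roots of wild-type Columbia seedlings after inoculation with a plant-growth-promoting soil bacterium, Azospirillum brasilense strain Az39, or with its ipdc mutant. In ipdc the gene for indole-3-pyruvate decarboxylase is lost, with which the bacterium makes the auxin indole-3-acetic acid. There were 6 groups of n = 2 libraries each, saline, Az39 and ipdc at 24 h and at 7 d after treatment. Every seedling grew on nutrient agar with sucrose under 16 h light and 8 h dark and was treated 4 days after planting with 2 uL of liquid, either 0.9% saline alone or washed bacteria in that saline at an optical density (OD595) of 1. A library pooled at least 50 root systems and was a biological replicate by its label. In such bulk samples fewer cells of a type and less RNA per cell cannot be told apart.

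Auxin binds between an F-box receptor of the TIR1/AFB group and the degron motif of an Aux/IAA protein, and the Aux/IAA protein is then ubiquitinated and degraded. Aux/IAA proteins otherwise bind ARF transcription factors and bring TOPLESS co-repressors to their target genes. ARF proteins bind short promoter elements such as TGTCTC and TGTCGG. Activator ARFs have a glutamine-rich middle region, and most others are classed as repressors. Many Aux/IAA genes are themselves rapidly induced by auxin, so the family acts as a negative feedback on the response, and in roots it is known for its part in lateral root initiation, gravitropism and meristem size.

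The 300 bases before the annotated gene start are shown for the 3 genes that were higher with Az39 at 7 d, IAA2, IAA18 and IAA19, and for IAA5, which had the highest fold change there. They are from the RefSeq TAIR10.1 assembly, 5′ to 3′ on the gene's own strand, and capitals mark TGTCTC or TGTCGG on either strand.
IAA2, minus strand, chr3:8182096-8182395: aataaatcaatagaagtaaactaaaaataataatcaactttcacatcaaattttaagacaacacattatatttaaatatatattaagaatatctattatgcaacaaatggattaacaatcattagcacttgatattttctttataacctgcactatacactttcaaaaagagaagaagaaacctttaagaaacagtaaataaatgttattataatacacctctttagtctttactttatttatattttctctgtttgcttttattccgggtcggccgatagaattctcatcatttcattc
IAA18, plus strand, chr1:19304781-19305080: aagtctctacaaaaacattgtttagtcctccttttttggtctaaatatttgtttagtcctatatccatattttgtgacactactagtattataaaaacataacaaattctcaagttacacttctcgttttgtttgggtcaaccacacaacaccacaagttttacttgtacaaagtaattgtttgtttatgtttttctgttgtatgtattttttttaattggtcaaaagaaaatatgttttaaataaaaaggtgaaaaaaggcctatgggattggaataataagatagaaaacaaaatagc
IAA19, plus strand, chr3:5263701-5264000: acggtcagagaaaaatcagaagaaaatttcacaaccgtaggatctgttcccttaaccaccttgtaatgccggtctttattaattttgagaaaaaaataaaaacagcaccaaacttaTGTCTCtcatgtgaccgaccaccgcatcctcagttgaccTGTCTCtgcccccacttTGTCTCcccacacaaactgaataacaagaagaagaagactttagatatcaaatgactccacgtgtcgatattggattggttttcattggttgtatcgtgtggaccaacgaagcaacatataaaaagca
IAA5, minus strand, chr1:5366498-5366797: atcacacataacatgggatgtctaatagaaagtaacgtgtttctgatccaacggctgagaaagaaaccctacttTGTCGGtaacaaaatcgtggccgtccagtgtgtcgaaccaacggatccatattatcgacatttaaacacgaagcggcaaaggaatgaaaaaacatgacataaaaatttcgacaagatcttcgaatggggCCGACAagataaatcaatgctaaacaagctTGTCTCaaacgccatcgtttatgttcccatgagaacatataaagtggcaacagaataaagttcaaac

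The IAA19 window held 3 copies of TGTCTC, and the IAA5 window held 1 TGTCTC and 2 TGTCGG, of which 1 lies on the opposite strand and reads CCGACA. The IAA2 and IAA18 windows held neither sequence. IAA2 has a second annotated transcript start 242 bp inside the gene, and the 300 bases before that start held 1 TGTCGG. Either motif was present in 17.3% of the same windows of 27443 nuclear protein-coding genes, in 14 of 28 Aux/IAA windows (50%) and in 4 of 15 ARF windows (26.7%). TGTCTC, with or without the other motif, was in 13% of all windows, 11 Aux/IAA windows (39.3%) and 2 ARF windows (13.3%). TGTCGG, counted the same way, was in 4.91%, 6 (21.4%) and 2 (13.3%). These matches describe the letters in the windows and are not binding sites.

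The genes themselves lie at chr3:8180646-8182095 (IAA2), chr1:19305081-19307518 (IAA18), chr3:5264001-5265695 (IAA19) and chr1:5365512-5366497 (IAA5) in TAIR10.1. There are 3 pairs of members with no protein-coding gene between them, IAA3 and IAA17 (6388 bp apart), IAA2 and IAA7 (12510 bp) and IAA14 and IAA1 (10732 bp). IAA5 and ARF7 overlap a gene on the opposite strand (AT1G15570 and AT5G20720), and ARF19 overlaps AT1G19210 on the same strand. An annotated gene on the opposite strand also overlaps IAA3, IAA9, IAA10, IAA11, IAA13, IAA27, IAA32, ARF1 and ARF5. The library kit does not mark strand, so counts of overlapping genes were uncertain, as were counts of close paralogs in both families.

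Total counts per library ran from 9665704 to 21541793. All 12 root marker genes were detected in every library, at 0.562% to 1.25% of counts. The ipdc 24 h libraries stood apart. Seed storage transcripts made up 5.08% and 0.293% of their counts against 0.00148% to 0.125% in the other 10 libraries, with all 13 markers detected. Transcripts of the 23 photosynthesis markers made up 0.376% and 2.15% of their counts against 0.0672% to 0.324%, so neither list of markers of other tissues was at 0.

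Levels were compared between genes as CPM (each gene's share of a library's counts, on the usual scale) per kb of exon, averaged over the 12 libraries. IAA9 was the most abundant Aux/IAA transcript at 206.5 CPM per kb, a quantity that ranged from 157.5 to 232.7 between libraries, and it held 25.3% of the family's summed level. IAA16 (107.3), IAA8 (97.9) and IAA2 (60.8) followed, and these 4 genes together held 57.9%. The libraries of IAA9 lay above all those of every other Aux/IAA gene except IAA2, whose highest library reached 194.8 CPM per kb. IAA16 and IAA8 overlapped in range, as did IAA2 and IAA17 (58.3 CPM per kb). With Az39 at 7 d the group mean was 161.9 for IAA2, 211.5 for IAA9 and 68.5 for IAA17. In every other group IAA2 was below IAA17, at 31.0 to 54.6 against 49.5 to 70.1 CPM per kb. The place of IAA2 ahead of IAA17 thus rests on the Az39 7 d group. At the lower end were IAA5 (0.965), IAA29 (0.476) and IAA32 (0.260 CPM per kb).

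Among the ARF genes ARF2, a repressor known for its role in leaf and seed growth, was the most abundant at 47.1 CPM per kb with 23.8% of the family's summed level. ARF1 (23.0), ARF6 (19.6) and ARF9 (15.5 CPM per kb) brought this to 53.1%. The ranges of neighbours among these 4 genes over the 12 libraries of both times overlapped, ARF2 and ARF1 included. In each of the 6 groups, however, the mean of ARF2 was above that of ARF1. The group means were 33.1 to 66.1 for ARF2 and 19.4 to 25.6 CPM per kb for ARF1. ARF11 was the lowest at 1.33 CPM per kb. The ratio of the highest to the lowest group mean was 10.21 for IAA5, 5.38 for IAA18 and 5.23 for IAA2, and 1.24 for IAA12 and 1.28 for IAA9.

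**Figure D1:**
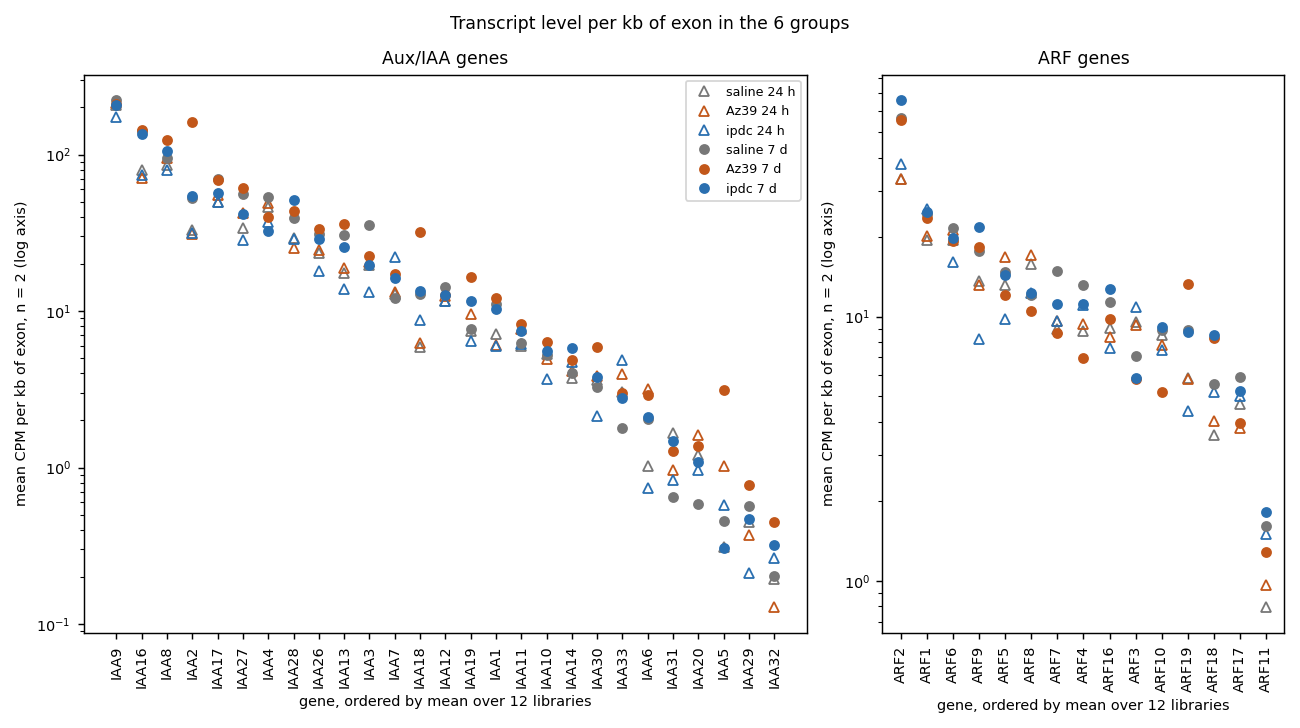
Mean CPM per kb of exon (log axis) of each Aux/IAA gene (left) and ARF gene (right) in the 6 groups, n = 2 libraries per point, with genes ordered by their mean over 12 libraries. IAA9 heads the Aux/IAA genes at 206.5 and ARF2 the ARF genes at 47.1, and the Az39 7 d points of IAA2, IAA18 and IAA5 lie above their other 5 groups.

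Az39 against saline at 7 d gave the most member calls of the treatment comparisons. IAA2, IAA18 and IAA19 rose, and no ARF gene passed edgeR's test. By edgeR's quasi-likelihood test with Benjamini-Hochberg adjustment 3 of 42 members passed at an adjusted p under 0.05, all higher, against 3.69% of all genes tested (2.35% higher and 1.34% lower). At an unadjusted p under 0.05 there were 12 members (24.3% of all genes). DESeq2 called 7 (10.5% of all genes) and limma-voom 5 (5.75%). The 12 root markers made up 1.12% and 1.25% of counts in the saline 7 d libraries, 0.562% and 0.913% with Az39 and 0.751% and 0.757% with ipdc. Saline was the highest without overlap, and the part of this difference in the 7 d results was not tested.

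IAA2 (AT3G23030), a short-lived repressor whose promoter is used as an auxin reporter in roots, stood at 66.4 and 77.0 CPM in the saline libraries at 7 d, 265 and 175 CPM with Az39 and 76.6 and 71.6 CPM with ipdc. Both Az39 libraries were above all the others, and saline and ipdc overlapped. The difference from saline was 3.07-fold, a log2 fold change of 1.62 ± 0.20 (SE, n = 2 per group, edgeR adjusted p = 0.00811). At 24 h the level had been 38.5 to 45.7 CPM in all 6 libraries.

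IAA18 (AT1G51950), a repressor whose stabilised form reduces lateral roots, stood at 23.4 and 22.4 CPM with saline, 60.03 and 53.43 CPM with Az39 and 26.2 and 21.4 CPM with ipdc at 7 d. The Az39 libraries again lay above the other 4, which overlapped. The log2 fold change against saline was 1.31 ± 0.17 (2.48-fold, edgeR adjusted p = 0.00869). Without the second saline 7 d replicate the calls of IAA2 (1.73) and IAA18 (1.28) were lost, as were most calls over all genes.

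IAA19 (AT3G15540), a repressor that acts with ARF7 in tropic growth, stood at 8.63 and 6.79 CPM with saline, 16.8 and 16.5 CPM with Az39 and 12.27 and 11.03 CPM with ipdc. The 3 treatments did not overlap, with ipdc between the other two. The log2 fold change of Az39 against saline was 1.11 ± 0.21 (edgeR adjusted p = 0.0276). This call was lost without any 1 of the 4 libraries compared, at 1.29 and 0.95 without the first and second saline replicate and 1.10 and 1.12 without the first and second Az39 replicate.

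IAA5 (AT1G15580), an early auxin-induced repressor of the same clade as IAA19, was detected at 10 and 4 counts with saline, 40 and 40 counts with Az39 and 1 and 6 counts with ipdc. The Az39 libraries were the highest, and saline and ipdc overlapped. Its log2 fold change against saline was 2.75 ± 0.73 (edgeR adjusted p = 0.065), which missed the threshold, while DESeq2 (adjusted p = 0.0278) and limma-voom (adjusted p = 0.0356) called it. IAA6, the third gene of the clade, stood at 0.51.

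**Figure D2:**
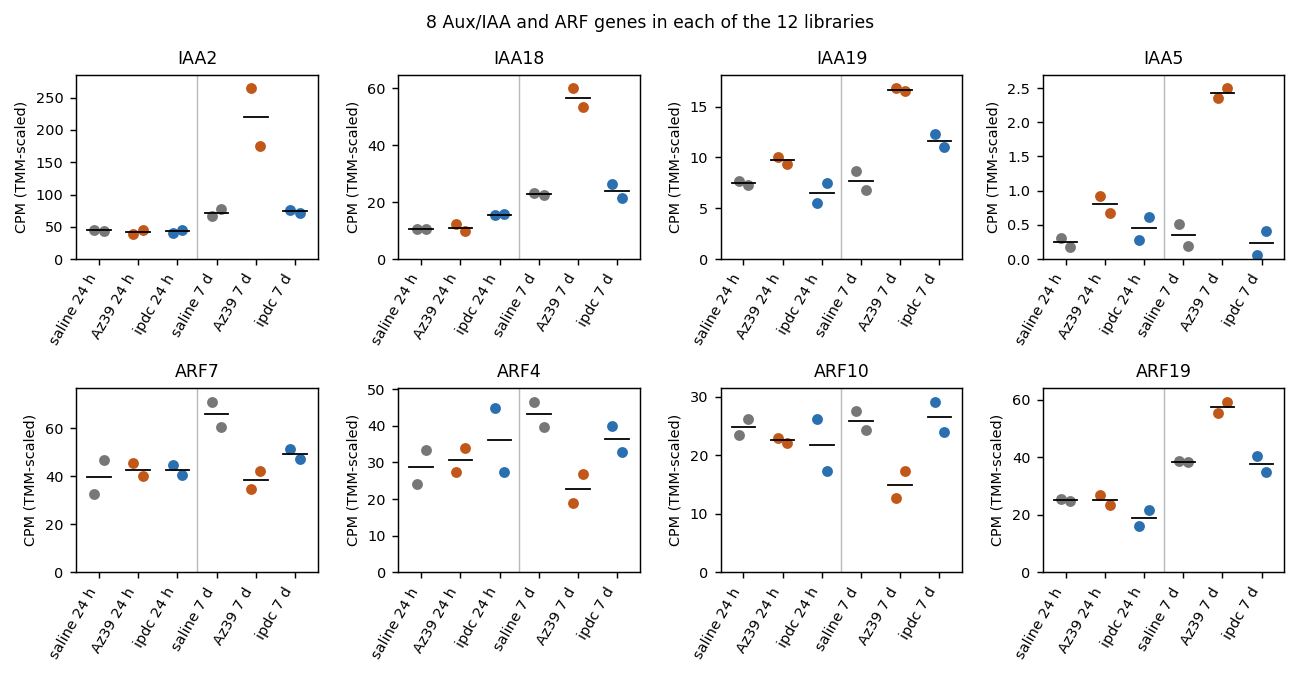
Normalised level (CPM, linear axes from 0) of 4 Aux/IAA and 4 ARF genes in each of the 12 libraries. Points are libraries, black lines group means, and the grey line separates 24 h from 7 d. Both Az39 7 d libraries lie above all others for IAA2, IAA18, IAA19, IAA5 and ARF19, and below both saline 7 d libraries for ARF7, ARF4 and ARF10.

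Over the Aux/IAA family 22 of 27 log2 fold changes were above 0, with a median of 0.38 against 0.05 over all genes tested. In 15 of 27 genes both Az39 libraries were above both saline libraries, against 30.7% of all genes, and in 3 both were below, against 26.4%. All 5 genes with little or no degron that were measured were above 0, from 0.74 (IAA33) to 1.23 (IAA20), and none passed. IAA20, IAA31 and IAA32 had few counts, such as 10 and 13 with saline and 23 and 22 with Az39 for IAA20. The libraries of IAA31 overlapped (9 and 14 counts with saline, 29 and 9 with Az39). The log2 fold changes of the IAA8, IAA9 and IAA27 clade ran from -0.08 to 0.38, and those of the IAA7, IAA14, IAA16 and IAA17 clade, which includes the lateral root repressor IAA14, from -0.03 to 0.51. The clade of IAA10 to IAA13 ran from -0.18 (IAA12) to 0.41 (IAA11), IAA18, IAA26 and IAA28 from 0.09 (IAA26) to 1.31 (IAA18), and IAA29 stood at 0.44. The IAA1 to IAA4 clade ran from -0.66 (IAA3) to 1.62 (IAA2), with 2 of 4 genes above 0. The lowest value of the family was that of IAA3, a regulator of root meristem size, at -0.66 ± 0.24 (edgeR adjusted p = 0.142).

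Most ARF genes lay below 0 in this comparison, and edgeR called none of them in the fit to all libraries. In this family 12 of 15 log2 fold changes were below 0, with a median of -0.21, and in 11 of 15 both Az39 libraries were below both saline libraries, against 26.4% of all genes. The 3 repressor genes targeted by miR160 (ARF10, ARF16, ARF17) were all below 0, from -0.79 to -0.21, and so were the 3 targeted by trans-acting siRNAs (ARF2, ARF3, ARF4), from -0.91 to -0.02.

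ARF7 (AT5G20730), an activator required for lateral root initiation, stood at 71.0 and 60.6 CPM with saline, 34.7 and 42.3 CPM with Az39 and 51.3 and 47.1 CPM with ipdc. The 3 treatments did not overlap. The log2 fold change of Az39 against saline was -0.77 ± 0.20 (edgeR adjusted p = 0.0604, DESeq2 0.00904, limma-voom 0.0495). In a fit to the 7 d libraries alone edgeR called it, at -0.81 (adjusted p = 0.0484).

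ARF10 (AT2G28350), a repressor active in the root cap, stood at 27.6 and 24.3 CPM with saline, 12.7 and 17.3 CPM with Az39 and 29.2 and 24.0 CPM with ipdc, so the Az39 libraries were the lowest and the others overlapped (-0.79 ± 0.23, edgeR adjusted p = 0.0809, DESeq2 0.0333). ARF4 (AT5G60450), a repressor that acts in lateral root and leaf development, stood at 46.6 and 39.6, 18.8 and 26.9, and 40.0 and 33.0 CPM in the same order. Its Az39 libraries were again the lowest (-0.91 ± 0.28, edgeR adjusted p = 0.0899, DESeq2 0.0282). In a fit without both ipdc 24 h libraries edgeR called ARF4, ARF7 and ARF10 lower. This brought the count to 6, against 1204 of 18746 genes tested.

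ARF19 (AT1G19220), the activator that acts alongside ARF7 in lateral root initiation, did not share the direction of ARF7. It stood at 38.7 and 38.2 CPM with saline, 55.4 and 59.4 CPM with Az39 and 40.6 and 34.8 CPM with ipdc. The Az39 libraries were the highest and the other 4 overlapped (0.58 ± 0.17, edgeR adjusted p = 0.0851). The repressor genes ARF1, ARF9, ARF11 and ARF18 ran from -0.33 (ARF11) to 0.57 (ARF18). The remaining activators ARF5, ARF6 and ARF8 were below 0 with Az39.

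**Figure D3:**
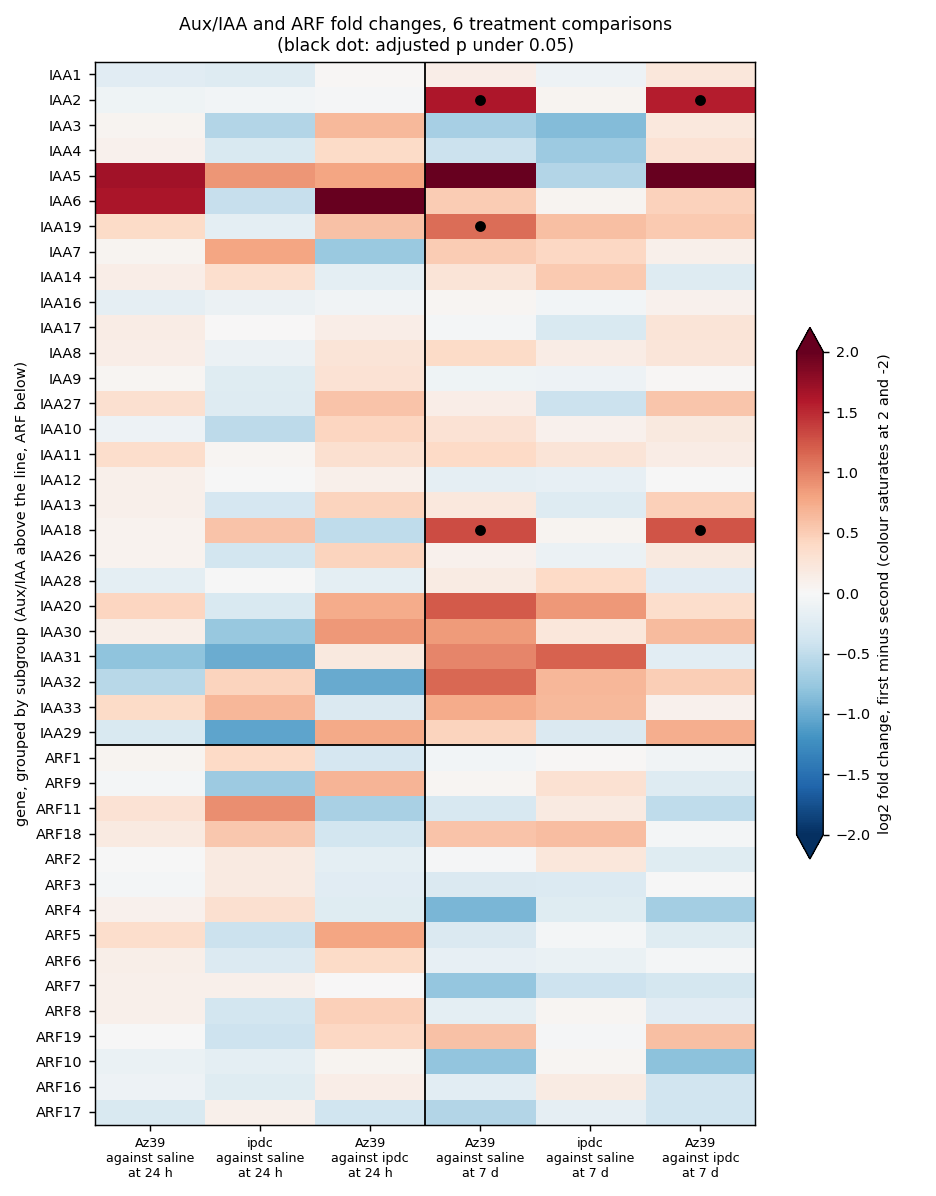
Log2 fold change of each of the 42 members (rows, Aux/IAA above the line and ARF below) in the 6 treatment comparisons (columns, 24 h left and 7 d right). Red is higher and blue lower in the group named first, colour saturates at 2 and -2, and a black dot marks an adjusted p under 0.05. The 5 dots are IAA2, IAA18 and IAA19 with Az39 against saline at 7 d and IAA2 and IAA18 with Az39 against ipdc at 7 d.

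Az39 was set against ipdc at 7 d to ask which of these levels differ between the strains. IAA2 and IAA18 were higher with Az39, and no ARF gene passed. The 2 calls compare with 0.117% of all genes tested. DESeq2 and limma-voom each called 2 (0.975% and 0.186% of all genes). The log2 fold change of IAA2 was 1.57 ± 0.20 (edgeR adjusted p = 0.0314) and that of IAA18 1.25 ± 0.17 (edgeR adjusted p = 0.0327).

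These 2 calls rested on few libraries. Calls over all genes also fell in the fits that lost them. Both were lost without the first Az39 7 d replicate (IAA2 1.24, IAA18 1.17), without the first ipdc 7 d replicate (1.62 and 1.41) or without the second (1.52 and 1.11), and IAA18 also without the second Az39 replicate (1.33). They were lost too in a fit to the 7 d libraries alone, where the adjusted p was 0.11 for IAA2 and 0.0829 for IAA18.

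Among the other Aux/IAA genes IAA5 stood at 3.33 ± 0.79 (edgeR adjusted p = 0.275) and IAA19 at 0.52 ± 0.21 (edgeR adjusted p = 0.524). In this family 23 of 27 values were above 0 (median 0.24), and in 15 of 27 both Az39 libraries were above both ipdc libraries, against 22.5% of all genes. Of the ARF genes 14 of 15 were below 0 (median -0.25, all genes 0.01), and in 10 both Az39 libraries were below both ipdc libraries, against 20.3% of all genes. ARF10 stood at -0.83 ± 0.23 and ARF19 at 0.61 ± 0.17 (edgeR adjusted p = 0.362 for each). The Az39 libraries entered both this and the preceding comparison, so their directions are not separate evidence.

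For ipdc against saline at 7 d edgeR called 0 of 42 members, against 0.0159% of all genes tested. At an unadjusted p under 0.05 there were 4 (10.5% of all genes), and DESeq2 and limma-voom called 0 (2.01% and 0.0212% of all genes). IAA2 stood at 0.05 (95% interval -0.40 to 0.50) and IAA18 at 0.06 (-0.32 to 0.44), intervals that lie below the differences estimated for Az39. IAA19 stood at 0.60 ± 0.22 (edgeR adjusted p = 0.371) with both ipdc libraries above both saline libraries. IAA3 stood at 30.9 and 22.3 CPM against 41.7 and 55.1 CPM with saline, without overlap (-0.86 ± 0.25, edgeR adjusted p = 0.253), and its neighbour in the clade IAA4 at -0.73 ± 0.23 (edgeR adjusted p = 0.302). The Aux/IAA median was 0.05 and the ARF median 0.03, beside 0.04 over all genes.

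At 24 h none of the 42 members passed in any of the treatment comparisons by edgeR. Az39 against saline called 0 members and 0% of all genes, with 1 member at an unadjusted p under 0.05 (1.32% of all genes) and 0 by DESeq2 (0.0106% of all genes) and limma-voom (0%). That member was IAA6, at 1.18 and 0.583 CPM with saline, 2.88 and 2.59 CPM with Az39 and 0.568 and 0.707 CPM with ipdc. Its Az39 libraries were the highest at 24 h, and its log2 fold change against saline was 1.63 ± 0.53 (edgeR adjusted p = 1). The 3 genes of its clade were all above 0, with IAA5 at 1.68 ± 0.79 and IAA19 at 0.38 ± 0.22. The ARF genes ran from -0.30 (ARF17) to 0.36 (ARF5), and ARF17 stood at 0.085 without the second saline 24 h replicate.

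For ipdc against saline at 24 h edgeR called 0 members against 2.11% of all genes, with 8 at an unadjusted p under 0.05 (16.3% of all genes). DESeq2 called 2, IAA7 higher and ARF9 lower (7.42% of all genes), and limma-voom 0 (1.47%). Without the second ipdc 24 h replicate edgeR called ARF18 higher, while calls over all genes rose. That fit rests on the first ipdc 24 h replicate, in which seed storage transcripts made up 5.08% of counts. ARF18 stood at 18.0 CPM in it, 8.75 CPM in the replicate left out and 9.10 and 9.29 CPM with saline. Without the low-count filter it called 1, IAA7, against 522 of 20731 genes. IAA7 (AT3G23050), a repressor whose stabilised form makes roots agravitropic, stood at 24.0 and 24.7 CPM with saline, 26.4 and 24.0 CPM with Az39 and 40.6 and 43.9 CPM with ipdc. Both ipdc libraries were the highest, and the other 4 overlapped. The log2 fold change was 0.80 ± 0.18 (edgeR adjusted p = 0.051) against saline, and -0.75 ± 0.18 (edgeR adjusted p = 0.0701) for Az39 against ipdc.

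IAA18 stood at 10.6 and 10.5 CPM with saline, 12.4 and 9.80 CPM with Az39 and 15.5 and 15.7 CPM with ipdc at 24 h, with ipdc the highest (0.57 ± 0.17 against saline, edgeR adjusted p = 0.12). For Az39 against ipdc edgeR called 0 members against 0.959% of all genes, with 14 at an unadjusted p under 0.05 (18.6% of all genes). DESeq2 called 2, IAA6 and IAA7 (7.39% of all genes), and limma-voom 0 (0.392%). Without the second ipdc 24 h replicate edgeR called ARF5 (1.28), while calls over all genes rose. ARF5 stood at 25.1 CPM in the ipdc replicate that remained and 45.7 CPM in the replicate left out, against 52.3 and 69.6 CPM with Az39. IAA6 stood at 2.08 ± 0.57 (edgeR adjusted p = 0.0924). Over the Aux/IAA family 19 of 27 values were above 0 (median 0.29, all genes -0.03), and over the ARF family 8 of 15 (median 0.01). The part of the seed storage and photosynthesis transcripts of the ipdc 24 h libraries in these values was not tested.

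Whether a treatment difference itself changed between 24 h and 7 d was tested as a difference of differences. By edgeR 0 members passed in each of the 3 tests (0.0424%, 0.106% and 0.0106% of all genes for Az39 against saline, ipdc against saline and Az39 against ipdc). The counts at an unadjusted p under 0.05 were 6, 4 and 9 (11.8%, 13.9% and 13.1% of all genes). DESeq2 called IAA2 and IAA18 in the first and the third and 0 in the second (1.98%, 1.91% and 3.72% of all genes), and limma-voom called 0 in each (0.0371%, 0.0106% and 0.117%). The Az39 difference of IAA2 was larger at 7 d by 1.697 ± 0.29 (edgeR adjusted p = 0.077) and that of IAA18 by 1.25 ± 0.24 (edgeR adjusted p = 0.121). Between the strains the change was 1.59 ± 0.29 for IAA2 (edgeR adjusted p = 0.129) and 1.75 ± 0.25 for IAA18 (edgeR adjusted p = 0.068). Without the second ipdc 24 h replicate edgeR called IAA18 and ARF5 in this last test, while calls over all genes rose.

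From 24 h to 7 d several members rose in every treatment. These comparisons use separate libraries and follow roots that also grew older. Every change with ipdc, here and below, starts from the ipdc 24 h libraries. The part of their seed storage and photosynthesis transcripts in these changes was not tested. With saline 7 of 42 members passed, all higher, against 16.6% of all genes (8.02% higher and 8.6% lower), and DESeq2 called 11 (23% of all genes). With Az39 9 passed, 7 higher and 2 lower, against 13.9% (9.71% higher and 4.23% lower), and with ipdc 11 passed, 10 higher and 1 lower, against 20.1% (9.6% higher and 10.5% lower). In all 3 treatments IAA2, IAA13, IAA16, IAA18 and ARF19 rose, 5 of 42 members (11.9%), while 4.16% of all genes tested were called in all 3 in one direction.

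IAA16, an abundant repressor, went from 132 and 192 CPM to 281 and 289 CPM with saline, from 142 and 143 CPM to 289 and 293 CPM with Az39 and from 127 and 173 CPM to 261 and 285 CPM with ipdc. Every 7 d library was above every 24 h library. The log2 fold changes were 0.81 ± 0.21, 1.03 ± 0.21 and 0.87 ± 0.21 (edgeR adjusted p = 0.0291, 0.0119 and 0.0205). In each treatment the IAA16 call was lost in 3 of the 4 fits that left out 1 library. The log2 fold changes in those 4 fits were 0.57 to 1.14 with saline, 1.02 to 1.04 with Az39 and 0.70 to 1.11 with ipdc. IAA13, whose product can act with ARF5, lay at 26.4 to 43.8 CPM at 24 h and 54.4 to 83.7 CPM at 7 d, again without overlap. It rose by 0.81, 0.92 and 0.89. The IAA13 call was lost in 2 of 4 such fits with saline and in 1 of 4 with Az39 and with ipdc.

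IAA2 rose by 0.69 ± 0.20 with saline and 0.79 ± 0.20 with ipdc, and by 2.38 ± 0.21 with Az39. IAA18 rose by 1.12 ± 0.17, 0.61 ± 0.17 and 2.36 ± 0.18 in the same order. ARF19 rose by 0.61 ± 0.17 with saline, 0.99 ± 0.18 with ipdc and 1.19 ± 0.18 with Az39. IAA19 rose with Az39 (0.78 ± 0.22) and ipdc (0.84 ± 0.22). The calls of IAA2 with saline and ipdc, IAA18 with ipdc and ARF19 with saline were lost without any 1 of the 4 libraries compared. So was that of IAA19 with Az39. The log2 fold changes then ran from 0.45 (IAA18 with ipdc) to 0.85 (IAA2 with ipdc).

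Other genes passed in fewer treatments, which does not show that the treatments differ. IAA3 (0.85 ± 0.25) and ARF7 (0.72 ± 0.20) passed with saline, ARF18 (1.05 ± 0.31) with Az39, and IAA26 (0.68 ± 0.16), ARF2 (0.81 ± 0.25), ARF9 (1.41 ± 0.23) and ARF16 (0.74 ± 0.15) with ipdc. ARF3, also named ETTIN, fell with Az39 (-0.68 ± 0.16) and ipdc (-0.89 ± 0.16), from 26.2 to 33.9 CPM in the libraries of those groups at 24 h to 15.9 to 17.6 CPM at 7 d. ARF8, an activator that also acts in flowers, fell with Az39 (-0.70 ± 0.18).

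Among the members called in 1 or 2 treatments, IAA3 went from 22.5 and 31.1 to 41.7 and 55.0 CPM with saline, from 24.6 and 31.1 to 29.0 and 32.3 CPM with Az39 and from 15.5 and 20.2 to 30.9 and 22.3 CPM with ipdc. IAA26, of the clade of IAA18, went from 44.3 and 53.4 to 61.9 and 68.2 CPM with saline, from 51.3 and 51.0 to 63.3 and 75.2 CPM with Az39 and from 38.2 and 37.1 to 57.2 and 63.3 CPM with ipdc. The 7 d libraries of IAA26 lay above its 24 h libraries in each treatment, while those of IAA3 overlapped with Az39. ARF2 went from 113 and 144 to 230 and 207 CPM with saline, from 124 and 133 to 158 and 273 CPM with Az39 and from 153 and 140 to 278 and 234 CPM with ipdc. The repressor gene ARF9 went from 33.4 and 48.1 to 48.7 and 57.9 CPM with saline, from 33.4 and 45.5 to 52.8 and 57.2 CPM with Az39 and from 21.4 and 28.0 to 65.0 and 66.5 CPM with ipdc. ARF2 and ARF9 were higher at 7 d without overlap in each treatment.

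ARF16, a miR160 target that acts in the root cap, went from 22.1 and 23.4 to 27.2 and 29.8 CPM with saline, from 20.06 and 22.2 to 23.7 and 25.5 CPM with Az39 and from 19.97 and 18.4 to 31.6 and 32.5 CPM with ipdc. ARF18, a repressor gene, went from 9.1 and 9.3 to 14.7 and 14.1 CPM with saline, from 9.8 and 10.96 to 18.8 and 24.2 CPM with Az39 and from 18.0 and 8.8 to 25.3 and 18.8 CPM with ipdc. Both lay higher at 7 d in all libraries of each treatment. ARF3 went from 28.5 and 26.6 to 21.3 and 19.3 CPM with saline, from 26.2 and 27.1 to 16.0 and 17.4 CPM with Az39 and from 28.4 and 33.9 to 17.6 and 15.9 CPM with ipdc. ARF8 went from 65.2 and 48.8 to 44.7 and 41.8 CPM with saline, from 64.4 and 58.2 to 41.7 and 33.8 CPM with Az39 and from 44.5 and 43.9 to 47.3 and 41.2 CPM with ipdc. ARF3 was lower at 7 d without overlap in each treatment, and so was ARF8 with saline and Az39.

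The call of ARF18 with Az39 was lost with RLE scaling (edgeR adjusted p = 0.0525), with limma-voom (adjusted p = 0.0577) and without any 1 of the 4 libraries compared (0.85 to 1.22). With limma-voom the calls of ARF2 (adjusted p = 0.052) and IAA18 (adjusted p = 0.0554) with ipdc were lost. Many of the time calls depended on 1 library. With saline the count was 0 without the first 24 h replicate or the first 7 d replicate, 2 without the second 7 d replicate and 5 without the second 24 h replicate. With Az39 it was 4 and 3 without the first and second 24 h replicate and 8 and 4 without the first and second 7 d replicate, and IAA2, IAA18 and ARF19 were called each time. With ipdc it was 7 and 11 without the first and second 24 h replicate and 0 and 4 without the first and second 7 d replicate.

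**Figure D4:**
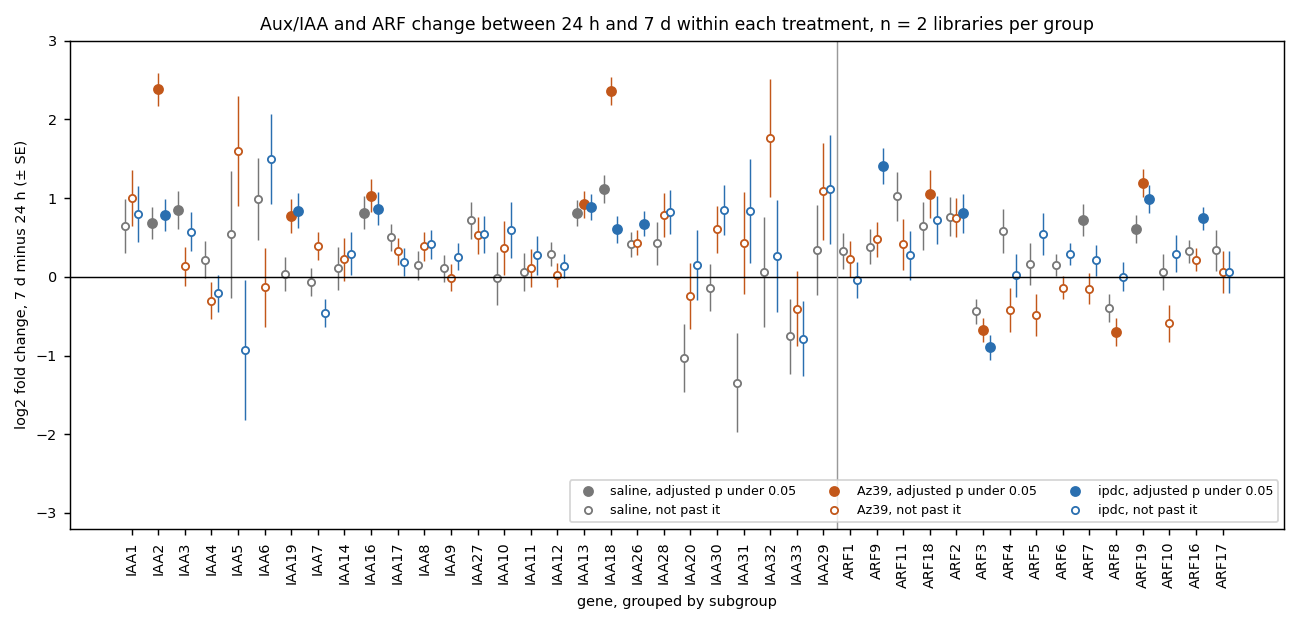
Log2 fold change from 24 h to 7 d of each member with saline (grey), Az39 (orange) and ipdc (blue). Points are estimates with n = 2 libraries per group, bars are ± SE, and filled points have an adjusted p under 0.05. IAA2 and IAA18 with Az39 stand highest at 2.38 and 2.36, and ARF3 lies below 0 in each treatment.

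The partners of these families were read from lists of 6 auxin receptor F-box genes, 5 TOPLESS co-repressor genes, 7 genes of the SCF ligase and its activation and 12 ARF target genes, of which 28 genes were tested. In the 6 treatment comparisons edgeR called 0 of 28, beside 0%, 2.11% and 0.959% of all genes at 24 h and 3.69%, 0.0159% and 0.117% at 7 d, for Az39 against saline, ipdc against saline and Az39 against ipdc. In that order 0, 1 and 1 of the 28 had an unadjusted p under 0.05 at 24 h. Beside them stood 1.32%, 16.3% and 18.6% of all genes. At 7 d there were 7, 5 and 1, beside 24.3% and 10.5% of all genes, and 1743 of 18867 for the last. DESeq2 called 0 in each at 24 h (0.0106%, 7.42% and 7.39% of all genes). At 7 d it called 3, 1 and 1 (10.5%, 2.01% and 0.975%). Limma-voom called 0 in each at 24 h (0%, 1.47% and 0.392%) and 1, 1 and 0 at 7 d (5.75%, 0.0212% and 0.186%). AFB2, an auxin receptor gene, stood at -0.63 ± 0.17 with Az39 against saline at 7 d (edgeR adjusted p = 0.0698). GH3.2, an enzyme gene that conjugates auxin to amino acids, stood at 17.1 and 18.8 CPM with saline, 23.7 and 30.5 CPM with Az39 and 80.4 and 52.8 CPM with ipdc at 7 d. The 3 treatments did not overlap and ipdc was the highest (1.89 ± 0.24 against saline, edgeR adjusted p = 0.0605), an order unlike that of IAA2 and IAA18. GH3.3, of the same enzyme family, stood at 1.90 ± 0.59 with Az39 against saline (edgeR adjusted p = 0.0933). From 24 h to 7 d GH3.2 rose in all 3 treatments (1.75 with saline, 2.06 with Az39, 3.07 with ipdc), GH3.3 with Az39 (2.18), and GH3.1, GH3.5, GH3.6 and LBD29, a regulator of lateral root initiation, with ipdc (1.12 to 2.02). Of the 18 receptor, co-repressor and ligase genes edgeR called 0 between the times, beside 16.6%, 13.9% and 20.1% of all genes with saline, Az39 and ipdc. At an unadjusted p under 0.05 there were 1, 5 and 4 in that order, beside 6360, 5807 and 6833 of 18867 genes. DESeq2 gave 0, 1 and 2 calls, beside 4336, 3570 and 4792 genes, and limma-voom 0 in each, beside 3546, 2319 and 2777.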

How the data were processed

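RNA was measured in 12 libraries of whole roots, 2 in each of 6 groups. The authors deposited raw counts of reads per gene, for which the submitters' processing notes name TAIR10, HISAT2 2.2.1 and featureCounts. How strand and multiply mapped reads were handled is not stated in the labels, which leaves paralogs and overlapping genes uncertain. The files give no positions, so coordinates are those of RefSeq TAIR10.1.

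The deposited counts entered edgeR 4.0.16 under R 4.3.3 (filterByExpr with a minimum count of 10, minimum total of 15 and proportion of 0.7, then TMM scaling). A model with a mean per group was fitted to all 12 libraries (6 residual degrees of freedom, biological coefficient of variation 24.5%). Contrasts used the two-sided quasi-likelihood F test with Benjamini-Hochberg adjustment over 18867 genes. Fold changes are log2 with a prior count of 0.125, and ± is a standard error. P-values rest on the spread between replicate libraries of pooled root systems, estimated over all 6 groups together. The fitting code was tested on simulated data.

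Of the 21200 genes 469 had no count. Totals of 9665704 to 21541793 limit precision for members with few counts, such as IAA5. As alternatives, DESeq2 1.42.0, limma-voom (limma 3.58.1), RLE scaling, other low-count filters, fewer libraries, a replicate block and leaving out each library were tried. The members follow family membership alone, but the families, the gene lists and the tests were chosen with earlier results of these data known. Members called in any comparison, or with an unadjusted p under 0.01 in a treatment comparison, are named, with the highest and lowest of subgroups. Further members, among them those named because another tool called them, were chosen after their values were seen.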

Additional observations from a re-analysis of the deposited data

How the results depend on the processing

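RLE scaling and a filter at a CPM of 1 in 2 libraries left every member count within 1.5 times the reported one. Counts for Az39 against saline at 7 d were 7 with DESeq2, 5 with limma-voom and 6 without both ipdc 24 h libraries, and 0 to 2 when 1 library was left out. For ipdc against saline at 24 h they were 2 with DESeq2, 1 with no low-count filter (IAA7), and 0 to 1 with 1 library left out. For Az39 against ipdc they were 2 with DESeq2 and 0 to 1 with 1 library left out at 24 h, and 0 with the 7 d libraries alone and 0 to 1 with 1 library left out at 7 d. From 24 h to 7 d they were 11 with DESeq2 and 0 to 5 with 1 library left out with saline, 3 to 8 with Az39 and 0 to 11 with ipdc. For the change of the Az39 difference with time DESeq2 called 2, and for that of the difference between strains 2, with 0 to 2 when 1 library was left out. The cause was not tested, except that fewer libraries leave fewer residual degrees of freedom. Where 1 library remained in a group, its spread was taken from the other groups. Directions reversed when 1 library was left out for ARF17 with Az39 against saline at 24 h (from -0.62 to a reversed value of 0.085), and for IAA2 (values of -0.056 and -0.00335, range up to 0.16) and IAA18 (-0.10 to 0.20) with ipdc against saline at 7 d, where the reported values are near 0.

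The titles mark 1 library of each group with a letter, and nothing in the labels says that the mark is a shared batch. Deviations of equally marked libraries correlated at r = -0.244 to 0.257 over genes. With the mark as a replicate block the counts were 2 for Az39 against saline at 7 d (IAA2 and IAA18), 0 for Az39 against ipdc at 7 d (adjusted p = 0.083 for IAA2 and 0.0781 for IAA18), and 1, 5 and 6 from 24 h to 7 d with saline, Az39 and ipdc. IAA18 was then the only member called with saline (IAA2, IAA13, IAA16 and ARF19 had adjusted p = 0.0849, 0.0597, 0.0547 and 0.11), IAA2 and IAA18 were lost with ipdc (0.0533 and 0.0774), and 0 members were called in all 3 treatments. With the marks of the ipdc 24 h libraries exchanged, chosen after the data were seen, the count for Az39 against ipdc at 24 h was 0.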
